A study of Rattus norvegicus with 36 samples.

Results

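The loci described here are places in the rat genome where the authors' software placed a new miRNA because the sequence resembled a miRNA of another species. They were found as all rows of the 2 homology classes of the deposited count table, whose names are a chromosome, a start and an end. These were 60 of 947 rows, and merging rows with overlapping coordinates left 45 loci on 15 chromosomes, 30 made of 1 row and 15 of 2 rows. Chromosome 10 held 11 loci and chromosome 3 held 5. The loci spanned 95 to 153 bases (median 131), and all coordinates are given in rn4, the build named in the submitters' processing notes.

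The table counts small RNA reads in 18 libraries of whole blood and 18 of lung, all from female WAG/RijCmcr rats. The rats were 9 to 10 weeks old when the whole thorax was given a single X-ray dose of 15 Gy, and controls received 0 Gy. Each tissue had 6 groups of 3 libraries. Irradiated rats were sampled 1, 2, 3 or 4 weeks after exposure, and 0 Gy controls after 1 or 4 weeks. The methods describe RNA of several rats pooled into each library, whereas 3 rats per group are given in the labels, so p-values measure the spread between libraries, which may be technical.

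A miRNA is cut from a hairpin that Drosha and Dicer process to a mature strand, and bases 2 to 8 of that strand, the seed, choose the messenger RNAs it represses. A hairpin has 2 arms, either of which can give reads, and several genes can encode the same mature strand. A locus predicted by homology can therefore be a second copy of a known gene, a known gene listed by its coordinates, or a gene known only in other species.

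Library totals were 1156407 to 2340177 counts for blood and 8132 to 3807051 for lung. In lung, 16 of 18 libraries were of ordinary depth. The other two, replicate 3 of 0 Gy at 1 week (11621) and replicate 3 of 15 Gy at 3 weeks (8132), had under 0.1 of the median total. The 5 red cell miRNAs made up 86.2 to 96.1% of the counts in blood and 0.997 to 5.88% in lung, except for 48.5% in that 15 Gy library at 3 weeks. The 3 miRNAs of endothelium and smooth muscle made up 5.25 to 18.01% in lung and at most 0.0190% in blood. Replicate 1 of 0 Gy and replicate 2 of 15 Gy in blood at 1 week are listed under each other's number in the paper, and the deposited labels were followed. The heart list, of which 1 of 3 members was at 0 in both tissues, reached at most 0.0246% in lung, and the liver marker miR-122-5p reached at most 0.00243%, in blood.

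The known rat miRNAs whose counts the most abundant loci followed are printed first, because the results below turn on which of them a locus tracks. The mature sequences are from RefSeq (GRCr8), which held 12 of the 15 known miRNAs in question and from which miR-101a-3p is added. Capitals mark the seed. The 13 strands, of 21 to 25 bases, had 13 different seeds.
rno-miR-26a-5p: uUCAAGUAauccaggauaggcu
rno-miR-22-3p: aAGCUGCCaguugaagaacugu
rno-miR-30a-5p: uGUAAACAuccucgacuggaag
rno-miR-103-3p: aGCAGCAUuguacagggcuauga
rno-miR-199a-3p: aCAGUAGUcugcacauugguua
rno-miR-28-3p: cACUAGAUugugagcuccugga
rno-miR-182: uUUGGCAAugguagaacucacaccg
rno-miR-365-3p: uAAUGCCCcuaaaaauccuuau
rno-miR-152-3p: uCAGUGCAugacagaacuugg
rno-miR-142-3p: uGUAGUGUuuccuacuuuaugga
rno-miR-100-5p: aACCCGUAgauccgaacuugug
rno-miR-24-2-5p: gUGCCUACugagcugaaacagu
rno-miR-101a-3p: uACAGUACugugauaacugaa
The remaining 3 followed miRNAs are miR-99a-5p, miR-423-3p and miR-30e-3p.

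Most loci were rare and a few were very abundant. In blood 15 loci were at 0 in every library, 8 had a mean count under 1, 8 a mean of 1 to 10, 7 of 10 to 100, 5 of 100 to 1000 and 2 above 1000. In lung the corresponding numbers were 3, 6, 14, 9, 5 and 8. Counts were found in both tissues for 30 loci and only in lung for 12, while 3 were never counted and 0 were counted only in blood. A mean of at least 10 counts, the minimum used for the comparisons of pairs below, was reached by 14 loci in blood and 22 in lung, 23 in either.

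The loci took a larger part of the lung libraries than of the blood libraries. Their share of the library counts was 5.98% ± 1.44 (SD, n = 18) in lung, with a range of 2.78 to 8.10%, and 0.832% ± 0.41 (SD, n = 18) in blood, with a range of 0.226 to 1.58%. This was not particular to the loci. In the 0 Gy rats the median log2 fold change of lung over blood, on the scale of library totals, was 4.79 over the loci tested and 4.34 over all rows tested. In blood a single locus on chromosome 8 gave 68.4% of all locus counts. In lung the top 3 loci gave 86.6%. Within blood the share was 1.21, 1.32 and 1.58% in the 3 libraries of 15 Gy at 2 weeks, above the 0.226, 0.642 and 0.989% of 0 Gy at 1 week. Other rows rose about as much, since with library totals the median log2 fold change there was 1.29 over 15 loci and 1.17 over all 289 rows tested. The 15 Gy groups of the other weeks overlapped their controls, at 0.413 to 0.819% at 1 week, and at 0.638 to 1.28% at 3 weeks and 0.362 to 1.46% at 4 weeks against 0.504 to 0.712% in 0 Gy at 4 weeks. The red cell miRNAs made up 86.2 to 87.3% of the counts in the 15 Gy group of 2 weeks and 90.4 to 96.1% in its control, and the part of this difference in the share of the loci was not tested. Fewer cells of a type and less RNA per cell cannot be told apart in such libraries.

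The most abundant locus was chr8:123981613-123981719, here the miR-26a locus after the miRNA it followed. miR-26a is a broadly expressed miRNA known for repressing the histone methyltransferase Ezh2. Its normalised level was 21621 ± 6128 CPM (reads per 1000000 of the library, with the totals scaled by TMM within a tissue, SD, n = 18) in lung and 5094 ± 1428 in blood. The locus chr9:22142869-22142978, the miR-30a locus, belongs by its match to the miR-30 family, which represses autophagy genes such as Beclin 1. It stood at 18160 ± 5723 CPM in lung and 1001 ± 275 in blood. The locus chr10:62782697-62782840, the miR-22 locus, matched a miRNA that is abundant in heart and blood-forming cells, and stood at 11035 ± 3339 CPM in lung and 406 ± 64.7 in blood. These 3 led the order in both tissues. The first 2 overlapped in lung within their spread over libraries, and in blood the miR-26a locus, with its lowest library at 2478 CPM, lay above the highest value of the miR-30a locus, 1251 CPM.

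The next loci in lung were less even. The locus chr8:44518661-44518763 ranged from 0 to 5878 CPM (mean 1701) and chr11:78139638-78139790 from 0 to 5881 CPM (mean 1379). The locus chr11:16397521-16397651, or miR-99a locus, ranged from 295 to 3211 CPM and chr3:57340843-57340973 from 0 to 3322 CPM. By contrast chr13:77910750-77910898, the miR-199a locus, kept between 567 and 1389 CPM. The locus chr10:67078689-67078839, or miR-423 locus, ranged from 419 to 1505 CPM and the miR-103 locus chr3:118996576-118996714 from 53.7 to 502 CPM. Depth had a part in these ranges. The zeros of chr11:78139638-78139790 and chr3:57340843-57340973 lay only in libraries of very low depth, while chr8:44518661-44518763 was also at 0 in 6 of ordinary depth. The 1505 CPM stood for 28 reads and the 53.7 CPM for 1 read, both in the 0 Gy library of 11621 counts. Means of neighbours from the 4th to the 9th place differed by less than the larger of their SDs over libraries. In blood the 4th and 5th places were held by chr10:20694998-20695142 and chr3:118996576-118996714, each at 287 ± 72.3 CPM.

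Each locus with a mean of at least 10 counts was set against the known rat miRNAs with such a mean, and the one with the smallest SD of the log2 count ratio over libraries (pseudocount 0.5) was taken as the miRNA it followed. An SD of at most 0.25 was called close. The choice picks the smallest of many SDs, so the SDs describe the chosen pairs and were not tested. In lung, over the 16 libraries of ordinary depth and 219 candidates, 13 of 22 loci were close, with median count ratios from 0.238 to 1.36, and 9 of these ratios lay between 0.9 and 1.2. Over all 18 lung libraries 9 were close and the same miRNA was chosen for 14 of the 22 loci. There chr10:20694998-20695142, chr11:78139638-78139790, chr3:57340843-57340973 and chr5:141365105-141365210 had another miRNA, none of them close, and chr3:118996576-118996714 was no longer close. Over the libraries in which a locus had counts 15 were close. In blood, over 18 libraries and 124 candidates, 7 of 14 were close, with ratios from 0.447 to 1.32. The points share library and depth.

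**Figure D1:**
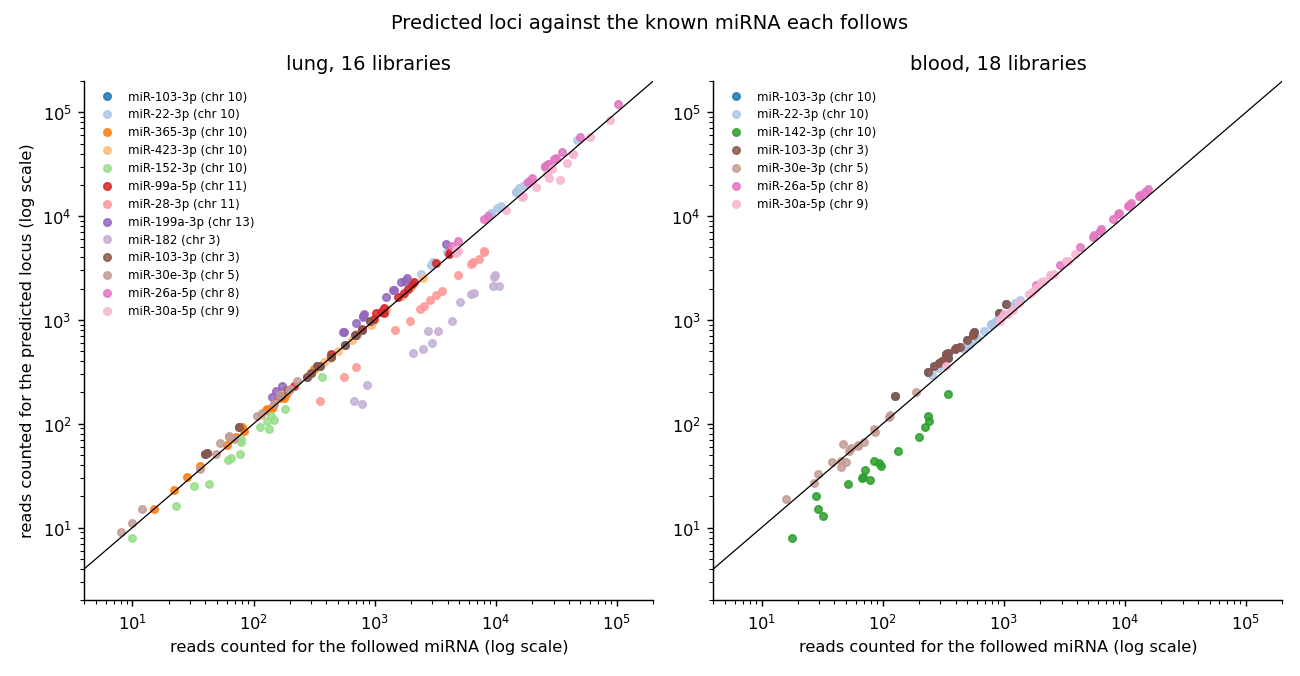
Reads counted for each predicted locus (vertical, log scale) against reads of the known miRNA it follows (horizontal, log scale), 1 point per library, for the 13 close pairs in lung (16 libraries) and the 7 in blood (18 libraries). The line marks equal counts. Every point of the miR-28-3p, miR-152-3p, miR-182 and miR-142-3p pairs lies below it, and the highest median ratios are those of the miR-199a locus in lung (1.27 to 1.40) and the miR-103 loci in blood (1.25 to 1.47).

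The tightest pair was the miR-26a locus with miR-26a-5p. The locus had 1.16 to 1.18 times as many reads as miR-26a-5p in each of the 16 lung libraries (median 1.17, SD of the log2 ratio 0.0092). In blood the range was 1.16 to 1.19 (median 1.17, SD 0.0095). Both SDs were below the 0.0164 and 0.0244 that independent Poisson counting of these reads would give, and the next best miRNA had an SD of 0.18 in lung and 0.297 in blood. The SD was below that of independent counting in 10 of the 13 lung pairs and 7 of the 7 blood pairs. The next best miRNAs of the close pairs had SDs of 0.18 to 0.388 in lung and 0.248 to 0.328 in blood.

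The miR-22 locus followed miR-22-3p at a ratio of 1.16 in lung (range 1.15 to 1.19, SD 0.0155) and 1.15 in blood (SD 0.0279). When homologs of other species were admitted as candidates, it lay closer still to bta-miR-3600, a cattle miRNA, at 0.989 (SD 0.0031) in lung and 0.986 (SD 0.0077) in blood. Among the 22 lung loci the closest candidate of both classes was a homolog of another species for 9, and in blood for 4 of 14. The locus chr11:78139638-78139790 followed miR-28-3p at 0.541 (SD 0.0752) and ppy-miR-151b, an orangutan miRNA, at 1.01 (SD 0.004). The locus chr17:16097371-16097514 had no close rat miRNA in lung (smallest SD 0.622), and eca-miR-1271, a horse miRNA, stood at 1.13 (SD 0.0716) in lung and 1.18 (SD 0.121) in blood.

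A pair of loci followed the same miRNA with the same counts. The loci chr10:20694998-20695142 and chr3:118996576-118996714 had equal counts in 34 of 36 libraries and differed by at most 1 read in the other two. Both followed miR-103-3p, a miRNA that lies in introns of pantothenate kinase genes, at a ratio of 1.05 in lung (SD 0.113) and 1.32 in blood (SD 0.0604). Human hsa-miR-103b was closer, at 0.966 (SD 0.018) in lung and 0.962 (SD 0.0152) in blood. A second such pair was chr1:134607262-134607364 and chr17:12204070-12204194, with 90 and 93 reads in all and equal counts in 33 of 36 libraries. The 2 members of such a pair were not separate measurements.

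The other close lung pairs spread over a wider range of ratios. The miR-199a locus had 1.36 times the reads of miR-199a-3p (SD 0.036), a miRNA of mesenchymal cells. The miR-99a locus stood at 1.07 to miR-99a-5p (SD 0.0506), a miRNA that represses mTOR. The locus chr10:65914934-65915054 stood at 1.05 to miR-365-3p (SD 0.0557). Near 1 lay also chr5:141365105-141365210, at 1.11 to miR-30e-3p (SD 0.088). In blood that pair had a ratio of 1.03 (SD 0.159). Below 1 lay chr10:85608211-85608360, at 0.767 to miR-152-3p (SD 0.152), a miRNA known to repress Dnmt1. The locus chr3:57340843-57340973 had the smallest ratio, 0.238 to miR-182 (SD 0.201, against 0.0687 from counting). In blood miR-182 was only its 27th candidate of 124 (SD 2.63). The RefSeq gene of miR-182 is on another chromosome, so the locus is not named after it. Just outside the limit, chr5:121990551-121990696 had 0.125 times the reads of miR-101a-3p (SD 0.251).

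**Figure D2:**
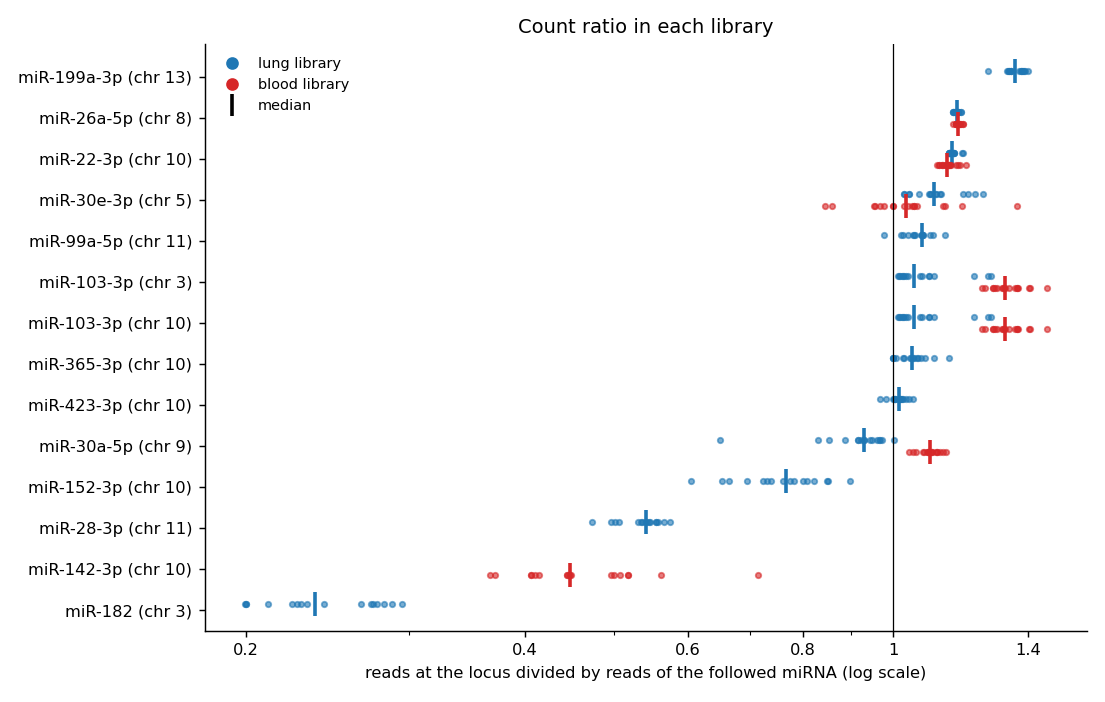
Reads at the locus divided by reads of the followed miRNA (horizontal, log scale), 1 point per library, in lung (blue) and blood (red), with bars at the medians. The miR-26a and miR-22 loci have narrow ratios near 1.2 in both tissues, the miR-103 loci have higher ratios in blood than in lung, and the locus paired with miR-182 lies lowest.

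Some pairs were unlike in the 2 tissues. The miR-30a locus had 0.93 times the reads of miR-30a-5p in lung (range 0.651 to 1.00, SD 0.147), with the lowest ratio in replicate 3 of 0 Gy at 4 weeks, and 1.04 to 1.14 times in blood (SD 0.0361). The miR-423 locus followed miR-423-3p in lung at 1.02 (SD 0.0293). In blood its ratio to miR-423-3p was 1.03 to 1.55 in 17 libraries and 3.98 in replicate 3 of 15 Gy at 4 weeks, where 223 locus reads stood beside 56, and miR-423-3p was the 4th candidate there (SD 0.436). The closest in blood was miR-423-5p, from the other arm of the hairpin, at 0.967 (SD 0.332). The locus chr10:76049258-76049391 was close to miR-142-3p, a miRNA of blood-forming cells, in blood only (ratio 0.447, SD 0.23), while in lung the ratio was 0.5 with an SD of 0.44 over a mean of 24.4 reads.

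For 10 of the 13 close lung pairs the followed miRNA had a gene in the RefSeq table, and for 8 of these 10 the gene was on the chromosome of the locus. In blood it was 5 of 6. On average 5.92% and 6.2% of the known miRNAs in the table lie on the chromosome of such a locus. The exceptions were the miR-103 locus on chromosome 10, whose counts equal those of the miR-103 locus on chromosome 3, and chr3:57340843-57340973, which followed miR-182 in lung. The table is of another build, so only chromosomes were compared.

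A predicted locus was listed at 0 in some libraries in which the miRNA it followed was well counted. The locus chr8:44518661-44518763 showed this most. Its lung counts were 5593, 2942 and 0 in 0 Gy at 1 week, 5945, 3198 and 0 in 0 Gy at 4 weeks, and 1327, 0 and 0 in 15 Gy at 1 week. They were 6983, 1809 and 0 at 2 weeks, 3913, 0 and 0 at 3 weeks, and 0, 4285 and 1483 at 4 weeks. In the 10 libraries with counts the locus had 1.17 times the reads of miR-100-5p (SD 0.0297), a member of the miR-99 and miR-100 family that represses mTOR. In the 8 libraries at 0, miR-100-5p had 15 to 3145 reads, which at that ratio would give 17.6 to 3687 reads at the locus. Every group held both kinds of library.

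The same pattern was seen for chr19:25638410-25638558, which had 1.04 times the reads of miR-24-2-5p (SD 0.0592) in 12 lung libraries. It was at 0 in 4 others where 43.5 to 468 reads would follow from that ratio. Those 4 were replicate 1 of 0 Gy at 4 weeks, replicate 2 of 15 Gy at 1 week, replicate 1 at 2 weeks and replicate 2 at 3 weeks. For chr11:78139638-78139790 it was 5 of 18 blood libraries, with 17.4 to 67.6 reads following from ppy-miR-151b. For chr10:64129481-64129625 it was 3 blood libraries against mmu-miR-451b, a mouse miRNA of the erythroid miR-451 locus. The pairs used here were those closest over the libraries in which the locus had counts, with homologs admitted, a choice made after the values were seen. It gave 23 such zeros in 6 of 28 pairs of locus and tissue. Of these, 4 were in 0 Gy and 4 in 15 Gy libraries of blood, and 5 and 10 in lung, where 15 Gy groups are 12 of 18 libraries. With pairs chosen over all libraries of ordinary depth there was 1, since a locus at 0 in some libraries cannot then be close.

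**Figure D3:**
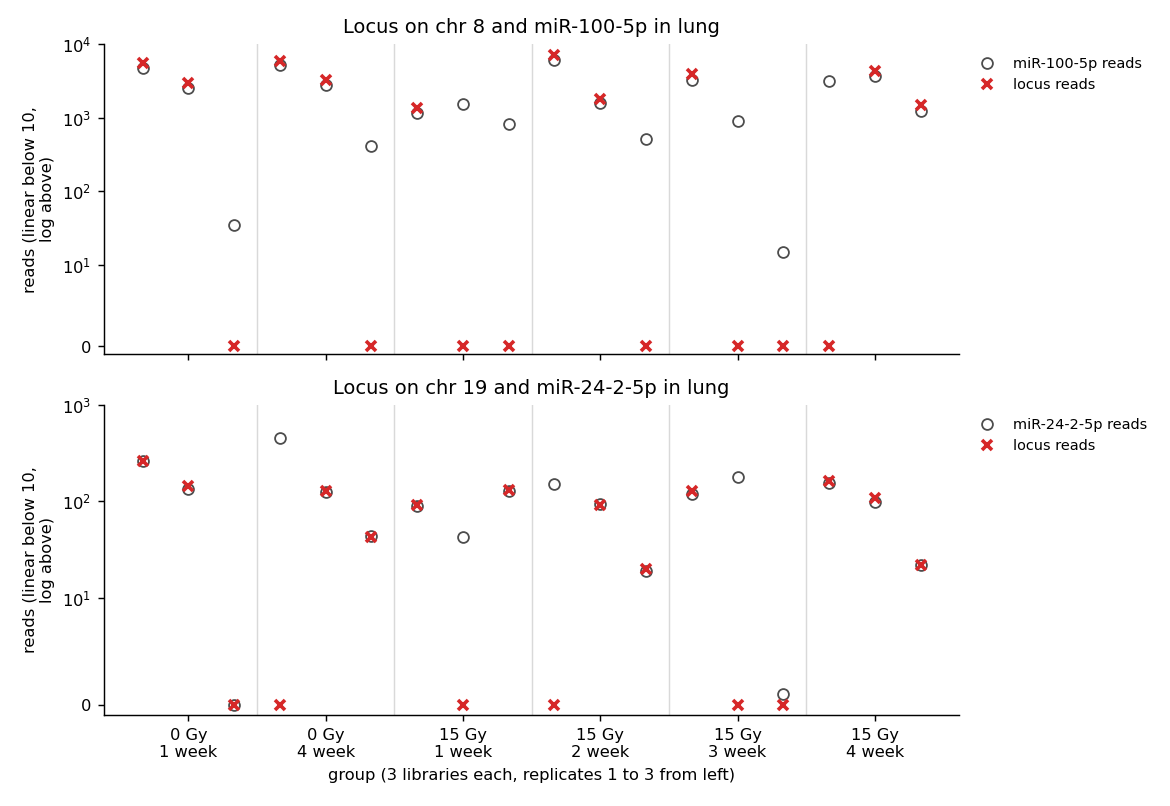
Lung reads (linear below 10, log above) of 2 predicted loci (red crosses) and of the miRNAs they follow (open circles) in the 18 libraries by group. Where the locus has counts it sits on its miRNA, and elsewhere it is at 0 while the miRNA is still counted, in 8 libraries for the chromosome 8 locus and 4 libraries (beside 2 with at most 1 read of miR-24-2-5p) for the chromosome 19 locus.

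Rows of other classes and shorter rows covered the same places. The 15 loci with 2 rows had a shorter inner row of 80 to 95 bases. In the 411 library values in which the outer row had counts, the inner row had the same count in 184 (44.8%), was at 0 in 214 (52.1%), lay between in 13, with a shortfall of at most 15 reads, and was above the outer row in 0. The longer row was used throughout, and adding the inner rows would raise the mean share from 5.98 to 10.9% in lung and from 0.832 to 1.06% in blood. Of the 45 loci, 26 overlapped a row of the genome classes. In lung that row had more reads for 12, fewer for 13 and neither was counted for 1. At chr10:76049258-76049391 the overlapping row had 7380 reads in lung against 391 for the locus. At the miR-199a locus it had 103 against 24584. Overlap did not mean equal counts in either direction.

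The first comparisons asked whether the loci changed after irradiation in blood. Low counts were filtered as in all comparisons, and 15 of 45 loci were among the 289 rows tested. With edgeR's quasi-likelihood test and Benjamini-Hochberg adjustment over all rows at 0.05, 0 of the 15 loci were called at 1 week (background 0.346% of rows), 2 weeks (0.346%), 3 weeks (0%) or 4 weeks (0%), in the 0 Gy groups between 4 weeks and 1 week (0.346%), or in all 15 Gy against all 0 Gy libraries (1.04%). At an unadjusted p under 0.05 it was 0 loci at 1 week (background 6.23%), 2 at 2 weeks (11.8%), 5 at 3 weeks (14.9%), 3 at 4 weeks (7.61%), 2 between the 0 Gy groups (4.15%) and 4 in all 15 Gy against all 0 Gy (16.3%). The 5, the 3 and the last 4 each include both miR-103 loci, which are 1 measurement. DESeq2 called 1 at 2 weeks and 4 over all weeks, which are 3 distinct measurements because the miR-103 loci have the same counts, and 0 in the others. The share of all rows that DESeq2 called is not given, so these counts are not set against other rows. Weeks 1 and 2 share the 0 Gy libraries of 1 week, and weeks 3 and 4 those of 4 weeks. In TMM scaling the median log2 fold change was 0.17 over the 15 loci and 0.08 over all rows in the comparison of all 15 Gy with all 0 Gy libraries.

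The miR-423 locus had the smallest p at 2 weeks and over all weeks. At 0 Gy and 1 week it stood at 165, 181 and 713 CPM and at 15 Gy and 2 weeks at 91.4, 117 and 118 CPM. The groups did not overlap, but the distance of the highest control from its 2 companions was larger than the gap between the groups. The log2 fold change was -1.70 (SE 0.60, adjusted p = 0.218 with edgeR). At 3 weeks the 15 Gy libraries stood at 87.5, 93.8 and 103 CPM and those of 0 Gy at 4 weeks at 120, 150 and 434 CPM. Here the log2 fold change was -1.30 (SE 0.59, adjusted p = 0.319 with edgeR). Over all libraries it was -0.98 (SE 0.35, adjusted p = 0.216 with edgeR), which DESeq2 gave as -1.09 with an adjusted p of 0.0426. In lung, where the locus followed miR-423-3p closely, the log2 fold change over all weeks was -0.20 (SE 0.25) for the locus and -0.25 (SE 0.26) for miR-423-3p.

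The miR-30a locus stood at 413, 710 and 1228 CPM in 0 Gy at 1 week and 473, 722 and 992 CPM in 0 Gy at 4 weeks. In 15 Gy it was 694 to 1144 CPM at 1 week, 1078 to 1251 at 2 weeks, 1214 to 1249 at 3 weeks and 1024 to 1213 at 4 weeks. The 15 Gy groups of 3 and 4 weeks lay above their control group, and those of 1 and 2 weeks overlapped theirs. Over all weeks the log2 fold change was 0.57 (SE 0.21, adjusted p = 0.216 with edgeR), beside 0.56 (SE 0.21) for miR-30a-5p. Without replicate 1 of 0 Gy at 1 week it was 0.82 with an adjusted p of 0.0412 in edgeR, with the 2 blood libraries exchanged 0.81 with an adjusted p of 0.0127, and DESeq2 gave 0.54 with an adjusted p of 0.0426 for all libraries.

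The miR-103 loci, 1 measurement under 2 names, stood at 212, 246 and 249 CPM in 0 Gy at 1 week and 216, 218 and 264 CPM in 0 Gy at 4 weeks. In 15 Gy they were at 260 to 286 CPM at 1 week, 248 to 332 at 2 weeks, 259 to 399 at 3 weeks and 259 to 478 at 4 weeks. The 15 Gy libraries of 1 week lay above their control group, and the other weeks overlapped theirs. Over all weeks the log2 fold change was 0.41 (SE 0.15, adjusted p = 0.216 with edgeR), beside 0.45 (SE 0.16) for miR-103-3p. DESeq2 gave 0.36 with an adjusted p of 0.0426. They had the smallest p at 4 weeks, with a log2 fold change of 0.62 (SE 0.24, adjusted p = 0.637 with edgeR).

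The locus chr10:76049258-76049391, which followed miR-142-3p, stood at 16.1, 17.2 and 19.2 CPM in 0 Gy at 1 week and 35.6, 38.1 and 49.6 CPM in 15 Gy at 2 weeks, and the groups did not overlap. Its log2 fold change was 1.23 (SE 0.50, adjusted p = 0.325 with edgeR), beside 1.34 (SE 0.43) for miR-142-3p. The 4 leukocyte miRNAs, of which miR-142-3p is one, summed to 0.0557 to 0.113% of the counts in that 15 Gy group and 0.0136 to 0.0208% in its control, and their part in the value was not tested. At 4 weeks the 15 Gy libraries spread from 8.49 to 45.6 CPM, around the control's 15.4 to 24.8 CPM.

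The most abundant loci had small fold changes. The miR-26a locus had a log2 fold change of 0.08 over all weeks in blood (SE 0.23, adjusted p = 0.902 with edgeR), with a 95% interval from -0.38 to 0.54. The miR-22 locus had 0.15 (SE 0.14, adjusted p = 0.574 with edgeR), with an interval from -0.12 to 0.43. The distance between the log2 fold changes of a locus and of its miRNA had a median of 0.03 and a maximum of 0.32 over 42 values of close pairs in blood, and a median of 0.07 and a maximum of 1.57 over 78 in lung, the maximum at chr5:141365105-141365210 at 3 weeks. The choice of pairs by a steady ratio largely fixes these distances.

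**Figure D4:**
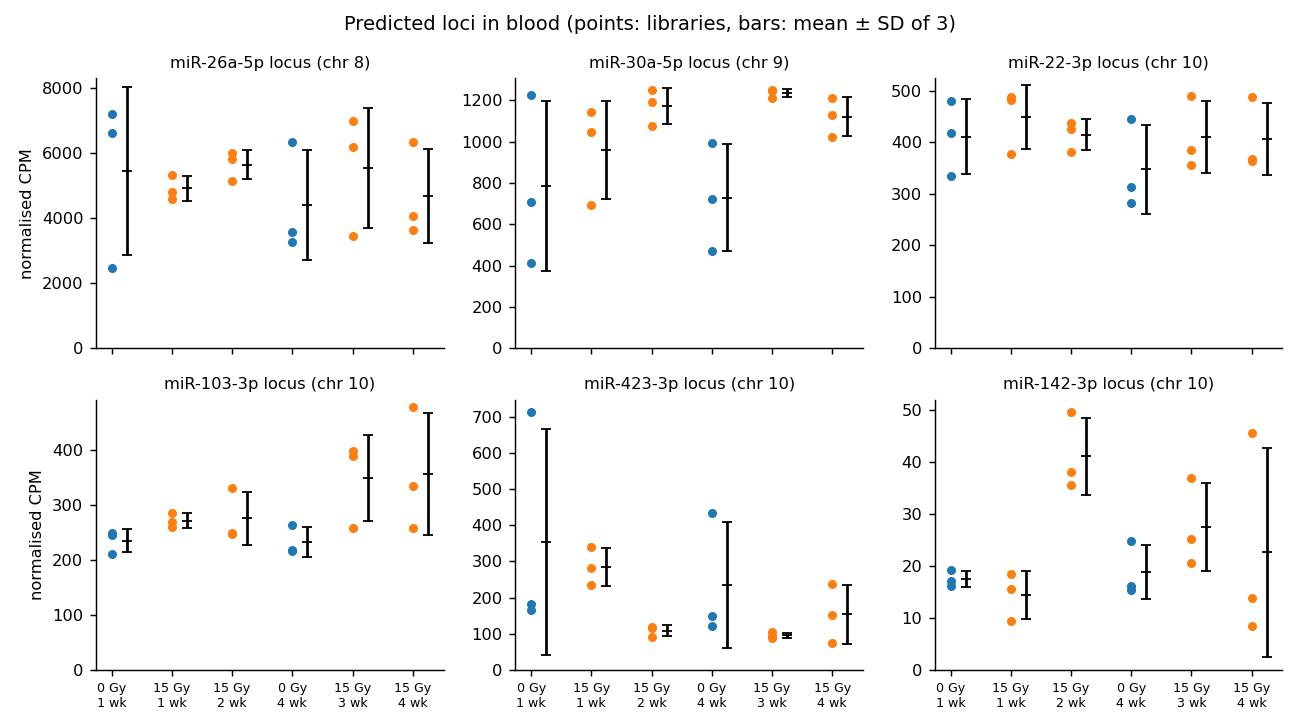
Normalised CPM of 6 predicted loci in blood by group (points, libraries; bars, mean ± SD of 3; blue, 0 Gy; orange, 15 Gy). The miR-26a and miR-22 loci overlap between the doses, and the 3 libraries of 15 Gy at 2 weeks lie below those of 0 Gy at 1 week for the miR-423 locus and above them for the miR-142 locus.

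Rare loci gave the smallest p at 1 week, at 3 weeks and between the 0 Gy groups in blood. The locus chr10:15571308-15571446 had 5, 0 and 25 reads in 0 Gy at 1 week, 0 in each library of 0 Gy at 4 weeks and 0, 6 and 14 reads in 15 Gy at 4 weeks. It had the smallest p at 1 week (adjusted p = 0.958 with edgeR) and between the 0 Gy groups (adjusted p = 0.961 with edgeR). The locus chr17:16097371-16097514 had 81, 33 and 31 reads in 0 Gy at 4 weeks and 6, 18 and 13 in 15 Gy at 3 weeks. Its log2 fold change was -2.14 (SE 0.82, adjusted p = 0.319 with edgeR), and between 0 Gy at 4 weeks and at 1 week, where it had 11, 5 and 12 reads, 1.85 (SE 0.82, adjusted p = 0.961 with edgeR). The control of 4 weeks was thus the high group in both.

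The same comparisons in lung tested 26 of 45 loci among 499 rows. With the same edgeR test 0 loci were called at any week, between the 0 Gy groups or over all weeks, and the background was 0% in each. At an unadjusted p under 0.05 it was 1 locus at 1 week (background 10.4%), 0 at 2 weeks (5.21%), 1 at 3 weeks (7.82%), 1 at 4 weeks (9.62%), 1 between the 0 Gy groups (7.21%) and 0 over all weeks (9.02%). DESeq2 called 0 loci in each. Over all weeks the median log2 fold change was -0.02 over the loci and -0.03 over all rows.

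The miR-99a locus had the smallest p at 4 weeks in lung. It stood at 950, 2780 and 3211 CPM in 15 Gy and 295, 833 and 1106 CPM in 0 Gy at 4 weeks, and the groups overlapped. The log2 fold change was 1.63 (SE 0.72, adjusted p = 0.453 with edgeR), beside 1.65 (SE 0.77) for miR-99a-5p. It was 1.67 without the 2 lung libraries of very low depth. At 3 weeks chr5:121990551-121990696 stood at 0, 51.9 and 54.4 CPM against 103, 112 and 248 CPM in 0 Gy at 4 weeks, with the 0 in the library of 8132 counts. The log2 fold change was -1.65 (SE 0.60, adjusted p = 0.574 with edgeR), and -1.64 without those 2 libraries. This locus also had the smallest p over all weeks (log2 fold change -0.63, SE 0.34, adjusted p = 0.606 with edgeR). The locus chr3:57340843-57340973 stood at 424, 430 and 452 CPM in 0 Gy at 1 week, the 430 CPM from 8 reads in the library of 11621 counts. In 0 Gy at 4 weeks this locus stood at 671, 816 and 3322 CPM, without overlap. Its log2 fold change between these controls was 1.88 (SE 0.77, adjusted p = 0.568 with edgeR), and 2.00 without those 2 libraries. At 1 week chr10:76049258-76049391 had 1, 6 and 22 reads in 15 Gy and 0, 25 and 26 in 0 Gy, with the 0 in the library of 11621 counts. The log2 fold change was -1.32 (SE 0.61, adjusted p = 0.445 with edgeR), and -1.37 without those 2 libraries. At 2 weeks the smallest p belonged to the miR-22 locus, at 13035, 13322 and 13632 CPM against 5428, 10268 and 11348 CPM, without overlap. The log2 fold change there was 0.56 (SE 0.36, adjusted p = 1 with edgeR), and 0.17 without those 2 libraries.

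The difference between the 15 Gy change in lung and that in blood was tested for 31 loci among 576 rows. With edgeR 0 were called (background 0.174%), 3 had an unadjusted p under 0.05 (background 12.3%) and DESeq2 called 0. The smallest p belonged to chr1:134607262-134607364, which had 7 reads in all of blood and 83 in all of lung (log2 difference 4.39, SE 1.48, adjusted p = 0.241 with edgeR). For the miR-30a locus the log2 difference was -0.75 (SE 0.35, adjusted p = 0.382 with edgeR).

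Lung and blood of the 0 Gy rats were compared last. With edgeR 22 of 31 loci were called (71%, background 75% of 576 rows), 16 higher in lung (background 49.7%) and 6 lower (25.3%), so the loci were called about as often as other rows. With each pair of loci of the same counts taken once, it was 21 of 29, with 5 lower. Rows counted in enough libraries of either tissue passed the filter. Of the 22 called loci, 7 had 0 and 2 had 1 to 3 reads in control blood. For rows tested only because of their lung reads, a call higher in lung was nearly fixed beforehand. The direction depends on scaling. The median log2 fold change of all rows was 1.85 with TMM, 1.21 with RLE size factors and 4.34 with library totals. Leaving out 1 control library moved the TMM median to between 0.34 and 1.60 and the loci called to 11 to 16 higher and 5 to 11 lower. With RLE 15 loci were called higher and 8 lower, and with library totals 24 and 1. No share of all rows is given for these settings or for the left-out libraries. These counts therefore show the dependence on scaling and libraries, and are not set against other rows. Values are therefore also given relative to the median of all rows. Of the 22 called loci, 21 kept 1 side of that median in every alternative, the miR-30a locus being the exception, but 12 of the 22 lost their call in at least 1 alternative.

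Loci well above that median included those of miR-199a and miR-99a, and chr3:57340843-57340973. The miR-199a locus had 12 reads in 6 control libraries of blood and 11333 in those of lung, a log2 fold change of 7.43 (SE 0.54, adjusted p = 4.76e-12 with edgeR), 5.58 above the median. The miR-99a locus had 14 and 11776 reads, a log2 fold change of 9.40 (SE 1.18, adjusted p = 6.98e-07 with edgeR), 7.55 above the median. The miR-199a and miR-99a loci had at most 4 and 9 reads in any blood library, so they passed the filter through lung alone. The locus chr3:57340843-57340973 had 105 and 8416 reads and a log2 fold change of 4.54 (SE 1.15, adjusted p = 0.000901 with edgeR). In the 0 Gy libraries the 5 miRNAs of lung epithelium made up 0.387 to 0.617% of the counts in lung and at most 0.000753% in blood. The part of cell makeup in the values of these loci was not tested.

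In all, 7 of the called loci had 0 reads in the 6 control libraries of blood. The locus chr8:44518661-44518763 had 17678 reads in control lung, and no fold is given for it, since it was also at 0 in lung libraries with reads of miR-100-5p, which had a mean of 4.78 reads per library in blood. For the others the bound uses a floor of 3 reads over these libraries, on the scale of library totals, where the median row was 20.2-fold higher in lung. The bound was at least 265-fold for chr5:172898999-172899093, itself at 0 in 2 lung libraries where 12 reads were predicted, and at least 127-fold for chrX:139996168-139996289. It was at least 48.4-fold for chr10:57074152-57074272 and at least 31.7-fold for chr6:134186946-134187088. A row of the genome classes that overlapped chr10:57074152-57074272 had 178 reads in all of blood and 706 in all of lung. In blood it had counts in 9 libraries where the locus was at 0, so this bound holds for the row of the locus only. The bounds of chr2:44418144-44418266 (at least 21.7-fold) and chr10:62480711-62480841 (at least 19.6-fold, called in 13 of the 21 settings tried, the reported one included) were no larger than 1.07 times that of the median row. Floors cover counting error only.

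Loci below the median included those of miR-103, miR-142 and miR-423. The locus chr10:64129481-64129625, nearest in the counted blood libraries to mmu-miR-451b, had 122 reads in control blood and 4 in control lung, a log2 fold change of -7.25 (SE 1.35, adjusted p = 0.000123 with edgeR). The miR-103 loci had log2 fold changes of -2.32 (SE 0.41, adjusted p = 1.63e-05 with edgeR) on chromosome 10 and -2.26 (SE 0.29, adjusted p = 1.16e-07 with edgeR) on chromosome 3, and 0.32 and 0.39 with library totals. Relative to the median of all rows they were at -4.17 and -4.12 with TMM and -4.01 and -3.95 with library totals. The locus of miR-142-3p had -2.41 (SE 0.47, adjusted p = 4.9e-05 with edgeR), and 0.20 with library totals. In the 0 Gy libraries the 4 leukocyte miRNAs made up 0.0769 to 0.25% of the counts in lung and 0.0136 to 0.0343% in blood. The locus chr1:238806808-238806950, with no close match, had -2.90 (SE 0.56, adjusted p = 5.2e-05 with edgeR). The miR-423 locus had -0.90 (SE 0.37, adjusted p = 0.03 with edgeR), and 2.01 with library totals.

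The abundant loci lay between these. The miR-22 locus had a log2 fold change of 2.24 (SE 0.24, adjusted p = 7.19e-09 with edgeR), 0.39 above the median, with a range of 0.0048 to 1.09 over the alternatives. Without replicate 1 of 0 Gy at 4 weeks in lung the log2 fold change itself was 0.47. The miR-30a locus had 2.18 (SE 0.295, adjusted p = 2.76e-07 with edgeR), 0.32 above it, with a range of -0.05 to 0.95, and was called in 16 of 21 settings. The miR-26a locus had -0.26 (SE 0.28, adjusted p = 0.422 with edgeR), or -2.11 relative to the median. It had -0.94 with RLE and 2.45 with library totals, and was called in 14 of 21 settings. Other called loci were chr10:85608211-85608360, with 2 reads in control blood and 572 in control lung, and chr10:65914934-65915054, with 3 and 776. The remaining calls were less stable. The locus chr11:78139638-78139790 had 199 and 15861 reads and was called in 14 of 21 settings, and chr19:25638410-25638558 had 13 and 576 and was called in 8 of 21.

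**Figure D5:**
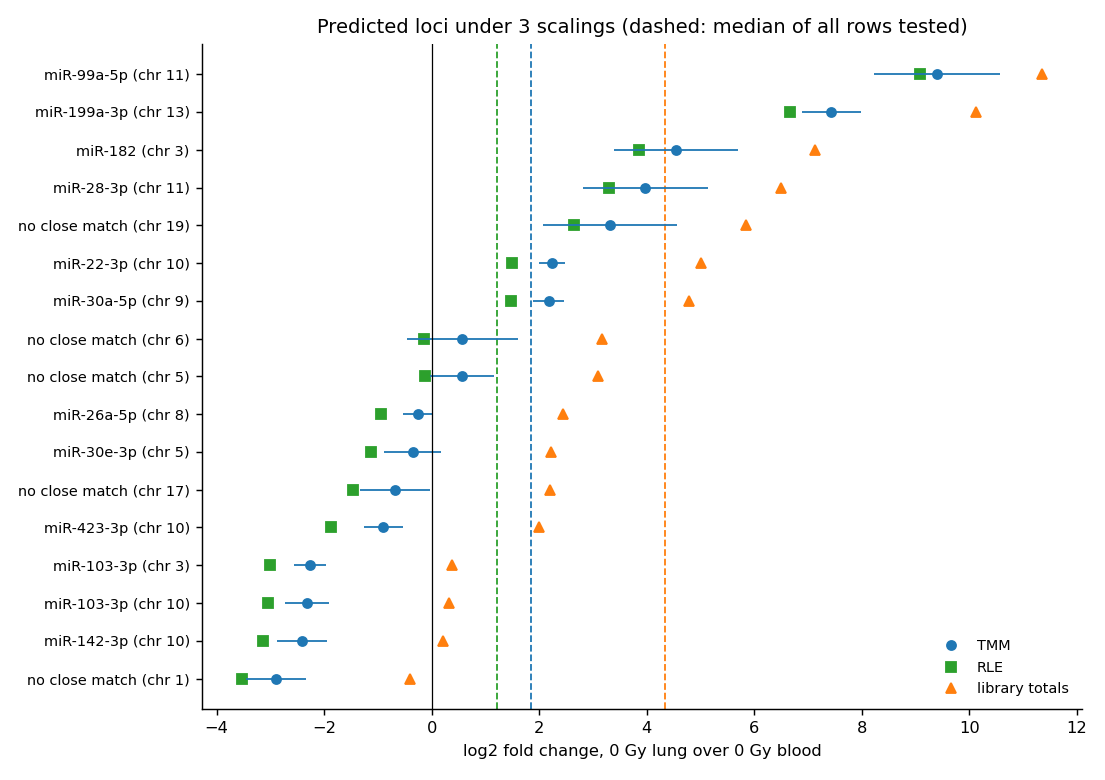
Log2 fold change of 0 Gy lung over 0 Gy blood for the 17 predicted loci with at least 10 reads in the controls of both tissues, with TMM (blue, bars ± SE), RLE size factors (green) and library totals (orange), and the median of all rows under each (dashed). The miR-99a and miR-199a loci lie right of the median and the miR-103 and miR-142 loci left of it under every scaling shown, while the sign against 0 depends on the scaling for 9 of the 17, among them the miR-26a, miR-103, miR-142 and miR-423 loci.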

How the data were processed

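Per the study's methods, the authors trimmed adapters and mapped reads to miRBase with Bowtie. Reads left unmapped there were cleared of other RNA classes, and the rest served to predict new miRNAs with miRanalyzer. Whether a locus and the miRNA it followed share reads was not tested. Bowtie 1.1.1, Trim Galore 0.2.5 and the build rn4 stand in the submitters' processing notes. Values are the read counts that the authors deposited, not normalized.

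Rows of the 2 homology classes were merged where coordinates overlapped, and the longest row gave the locus its counts. Counts were filtered with filterByExpr, scaled with TMM and fitted per tissue (or over both) in R 4.3.3 with edgeR 4.0.16 (quasi-likelihood test, Benjamini-Hochberg adjustment over all rows, threshold 0.05). DESeq2 1.42.0, RLE size factors, library totals, no filter, a replicate block, removal of nested rows, 2 exchanged blood libraries and left-out libraries were alternatives, and pairs chosen over the libraries with counts were added after the data were seen. The edgeR code was tried on simulated independent counts. These lacked rows of equal counts and the zeros described above, so the trial does not bear on the loci. SE is the log2 fold change over the root of F, and 95% intervals are 1.96 SE wide on each side.

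Loci named are the 10 most abundant in lung and 5 in blood, those called, the smallest p of each comparison and the close pairs with the extreme ratios. Other loci, of pairs, zeros and overlaps, were named after their values were seen. The members and lists were chosen with earlier results of these data known. Replicate numbers were not taken to pair the libraries. Locus sequences were not used here, since no rn4 genome was at hand.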

Additional observations from a re-analysis of the deposited data

How the results depend on the processing

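Over the 14 comparisons the number of loci called stayed within 1.5 times its value under the alternatives tried, with these exceptions. DESeq2 called 1 locus in blood at 2 weeks and 4 (3 distinct measurements) in blood over all weeks, against 0 with edgeR. The share of all rows that DESeq2 called is not given. With 2 blood libraries exchanged, because the study lists replicate 1 of 0 Gy at 1 week and replicate 2 of 15 Gy at 1 week under each other's number, 1 locus was called in blood over all weeks and 1 in the difference between tissues. Leaving out 1 library gave 0 to 1 in blood over all weeks, the 1 being the miR-30a locus without replicate 1 of 0 Gy at 1 week, 20 to 25 between tissues (22 with all) and 0 to 0 in the others. The lowest was without replicate 3 of 0 Gy at 4 weeks in lung.

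Blood in place of lung gave 7 close pairs against 13. All 18 lung libraries gave 9, counted libraries 15, and counted libraries with homologs 18. The count of zeros was 1 with pairs chosen over all libraries and 23 with those chosen after seeing the data. With library totals the tissue difference turned positive for both miR-103 loci (0.32 and 0.39), the miR-423 locus (2.01) and the miR-142 locus (0.20). It also turned positive for 5 loci not called with TMM, the miR-26a locus (2.45), chr5:141365105-141365210 (2.23), chr17:16097371-16097514 (2.20), and chr17:12204070-12204194 and chr1:134607262-134607364 (1.94 each). The change of chr10:15571308-15571446 in blood at 1 week ranged from -3.11 to 0.64 when 1 library was left out, the positive value without replicate 3 of 0 Gy at 1 week. When 1 library was left out the median of all rows between tissues moved to 0.34 to 1.60, from 1.85, and the fold change of the miR-22 locus fell as low as 0.47, without replicate 1 of 0 Gy at 4 weeks in lung. The cause was not tested.

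A replicate block called 22 loci between tissues and 0 in every other comparison, so it changed no count of calls. Same-numbered libraries deviated together weakly (correlations from -0.23 to 0.45 in blood, -0.20 to 0.37 in lung), so the numbers were not taken as pairs. Depth limits what the 2 lung libraries of very low depth can show, and loci with few reads have wide intervals.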
